A study of Mus musculus with 20 samples.

Results

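A set of 43 genes that mark macrophages, monocytes and neutrophils was followed across 20 mouse libraries. The genes were listed by name as myeloid markers by a rule that uses no measured value, but with earlier results of these data known. All 43 were matched by symbol among the 25700 genes of the count tables. The study gave alkali, as bicarbonate, to mice with crystal nephropathy, a kidney disease caused by crystals. Its 4 groups hold 5 libraries each: control mice and oxalate mice, either left untreated or put on alkali therapy. The titles of both alkali groups also contain "late" with no explanation, so alkali and whatever that word stands for cannot be told apart. Strain, sex, age, tissue, dose and duration are not given in the sources used here. Nothing in the labels says that libraries came from separate animals, and p-values therefore measure only the spread between these libraries.

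Macrophages are phagocytes that most tissues hold from birth, and the kidney has its own resident population between the tubules. After injury, monocytes enter from the blood and become macrophages, while neutrophils, the most short-lived phagocytes, enter from the blood as granulocytes. Growth and survival of macrophages depend on the receptor encoded by Csf1r and its ligand Csf1, and much of their gene program is switched on by the transcription factor PU.1, the product of Spi1. Resident cells are often recognised by Mrc1, Cd163, Timd4, Folr2 and Lyve1, recruited monocytes by Ly6c2 and Plac8, and granulocytes by Csf3r, S100a8, S100a9 and Il1r2.

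Total counts ran from 25547840 to 39550689 per library. Levels are given as CPM, counts divided by library size, scaled by TMM, a factor that corrects for a few very abundant transcripts, and, where genes are compared with each other, per kilobase of merged exon as well (RPKM). Kidney origin, which only the series title and design imply, was checked with 10 nephron genes, whose summed level lay between 14579 and 17174 CPM in the 10 control libraries. In the untreated oxalate libraries that sum was 7262 to 12357 CPM, and in the oxalate libraries on alkali 9603 to 15507 CPM. Tissue is not given, and these were taken to be whole-tissue libraries, in which more cells of a type and more RNA per cell cannot be told apart. Within their groups 2 libraries stood apart: untreated oxalate 40 had the highest and oxalate on alkali 2 the lowest summed pan-macrophage level of its group, and the nephron sum was the lowest of the untreated oxalate group in library 40 and the highest of its group in library 2.

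The sequences just upstream of several members show how closely related some of these genes are, and where short letters known as binding motifs of myeloid factors occur. Lyz1 and Lyz2 encode the paired lysozymes of the mouse and lie side by side on chromosome 10 (GRCm38, minus strand), Lyz1 at chr10:117287797-117292868 and Lyz2 at chr10:117277331-117282321 in GENCODE M21. They are shown because they had the highest fold changes of all members and because reads could be shared between them. The stretch covers 70 bases, beginning 120 bases before the RefSeq start, at chr10:117292919-117292988 for Lyz1 and chr10:117282323-117282392 for Lyz2 (RefSeq, GRCm38.p6), and capitals mark the 9 bases that differ. The 50 bases that follow, not shown, were the same in both, which makes 92.5% identity over all 120 bases.
Lyz1: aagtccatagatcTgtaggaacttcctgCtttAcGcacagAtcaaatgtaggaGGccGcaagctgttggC
Lyz2: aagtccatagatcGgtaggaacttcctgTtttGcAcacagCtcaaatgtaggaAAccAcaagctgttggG

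Further stretches, each the 120 bases before a RefSeq start in GRCm38.p6, come from genes described below, and capitals mark motif matches on either strand. In Cd68, a lysosomal glycoprotein gene of macrophages, at chr11:69666171-69666290 on the minus strand, they mark a C/EBP motif (TTGCNNAA) and an AP-1 motif (TGANTCA). Itgax, which encodes the integrin CD11c, has an AP-1 match at chr7:128129430-128129549 on the plus strand. Fcgr4, an activating Fc receptor, has a PU.1 match (GNGGAAGT) at chr1:171018806-171018925 on the plus strand, and so does Ly6c2, the monocyte surface marker, before one of its annotated starts at chr15:75111972-75112091 on the minus strand.
Cd68: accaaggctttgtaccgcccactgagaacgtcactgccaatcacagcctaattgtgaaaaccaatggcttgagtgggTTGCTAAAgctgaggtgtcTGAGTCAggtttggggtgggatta
Itgax: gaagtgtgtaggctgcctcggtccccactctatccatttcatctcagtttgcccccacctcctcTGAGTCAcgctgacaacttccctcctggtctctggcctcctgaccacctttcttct
Fcgr4: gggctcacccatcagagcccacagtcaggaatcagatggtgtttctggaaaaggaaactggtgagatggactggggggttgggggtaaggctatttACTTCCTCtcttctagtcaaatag
Ly6c2: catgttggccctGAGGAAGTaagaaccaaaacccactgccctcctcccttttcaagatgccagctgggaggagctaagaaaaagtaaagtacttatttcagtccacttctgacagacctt
The RefSeq table held a promoter for 34 of the 43 members. Within 250 bases before a start, searched on both strands and for each motif separately, the PU.1 motif occurred in 6 of these 34 genes (17.6%) and in 6.51% of 27025 genes. The C/EBP motif occurred in 5 of 34 (14.7%) against 10.8% of all genes, and the AP-1 motif also in 5 of 34 (14.7%) against 7.82%. These matches are descriptions of letters, not of bound sites.

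Untreated oxalate libraries were first compared with untreated controls, which asks how far the disease changed the myeloid transcripts. Of the 43 members, 40 had enough counts to be tested, and 33 were higher and 1 lower in oxalate (edgeR quasi-likelihood test, Benjamini-Hochberg adjusted p under 0.05). Across all 15430 genes tested, 26.4% were called higher and 23.1% lower. The median log2 fold change of the 40 was 2.96, while the median over all genes tested was 0.00. In 29 members every oxalate library lay above every control library, and in 1 member every one lay below, against 18.5% and 15.4% of all genes. The 3 members not tested, Timd4, Marco and Arg1, were below the filter on low counts.

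**Figure D1:**
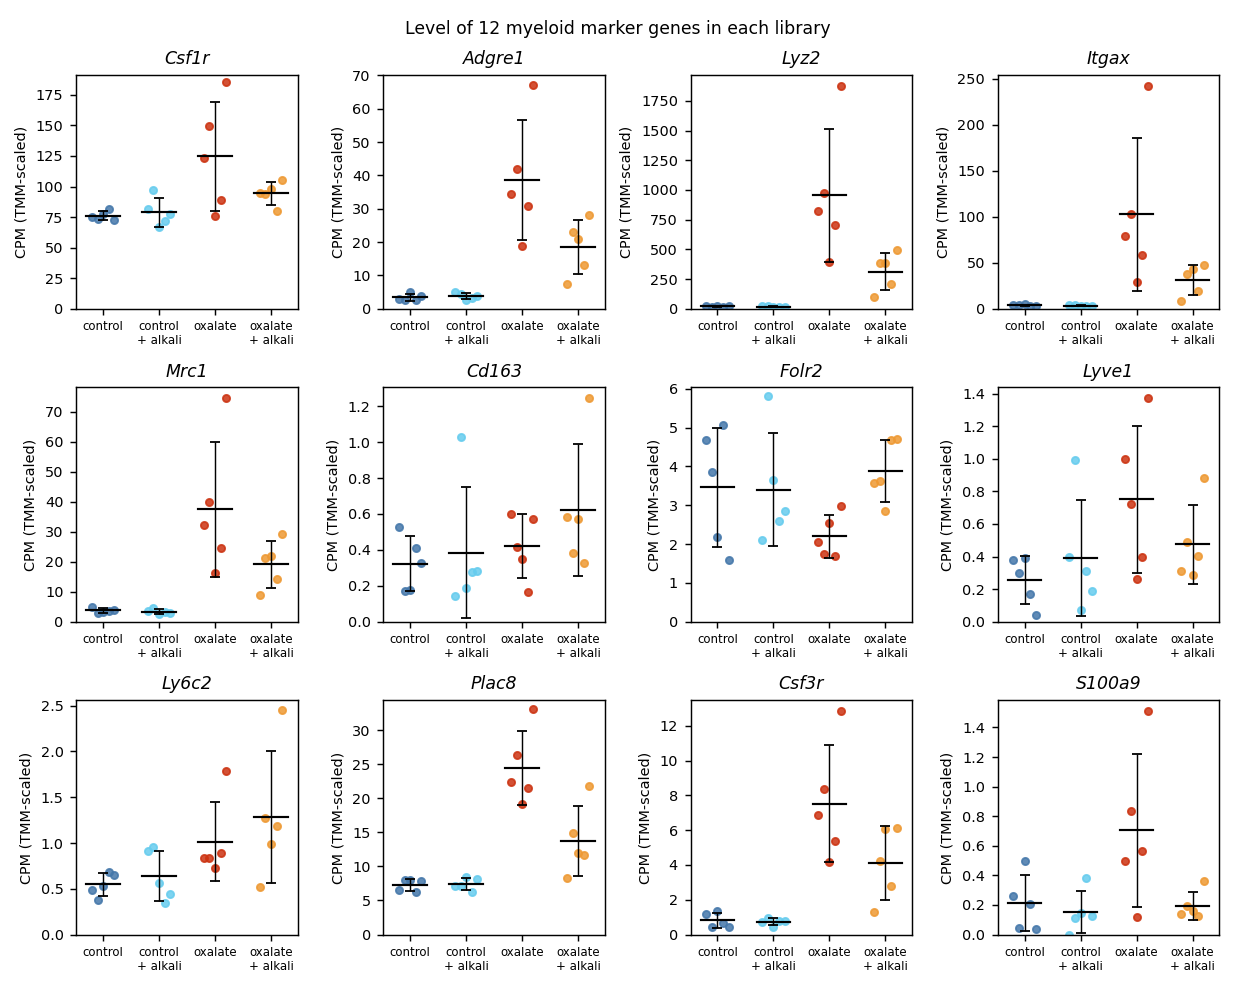
Level of 12 myeloid marker genes in each library, in TMM-scaled CPM on a linear axis, for the 4 groups of 5 libraries. Points are libraries, horizontal lines group means and bars SD. Lyz2, Itgax, Adgre1 and Mrc1 were higher in every untreated oxalate library than in any control library, whereas the Folr2 and Cd163 groups overlapped.

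All 12 pan-macrophage markers rose, with a median log2 fold change of 3.80. Lyz2, the lysozyme of macrophages, had the highest level per length of all members in untreated oxalate, with a median of 628 RPKM against 15.9 RPKM in untreated controls. Its level was 15.6, 18.6, 21, 21.5 and 27.3 CPM in the 5 untreated control libraries and 396, 706, 826, 970.3 and 1878 CPM in the 5 untreated oxalate libraries. Library 32 was the lowest and library 40 the highest oxalate library, and even library 32 was far above the highest control. The log2 fold change was 5.52 ± 0.45 (SE; edgeR adjusted p = 1.78e-07).

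Lyz1, its neighbour, was close to absent from controls and had the largest fold change of all tested members. Control libraries held it at 0.0406, 0.0423, 0.171, 0.178 and 0.339 CPM, and untreated oxalate libraries at 16.9, 27, 27.4, 30.9 and 68.3 CPM. Here too library 40 was the highest, more than 2 times the next library. The change was 7.72 ± 0.72 on the log2 scale (edgeR adjusted p = 4.74e-07), from very few counts in controls. Of the 50-base words of its exons, 16.1% also occur in Lyz2, so part of the Lyz1 count may be uncertain. The share of Lyz1 in the Lyz1 and Lyz2 counts, a measure chosen after the values were seen, was 0.742% ± 0.582 in untreated controls and 3.52% ± 0.415 in untreated oxalate (SD, n = 5 each; exact two-sided permutation p = 0.00794, the smallest this design can give).

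Csf1r, the receptor for the growth factor CSF1, changed least of the 12. Its level was 72.8, 73.4, 74.7, 77.6 and 81.7 CPM in untreated controls and 76.3, 89.2, 124, 149.6 and 186 CPM in untreated oxalate. Oxalate 32 lay inside the control range, and the other 4 oxalate libraries lay above it. The log2 fold change was 0.72 ± 0.17 (edgeR adjusted p = 0.00199), and Csf1r already had a median of 12.9 RPKM in controls, near the 15.9 RPKM of Lyz2. Its exons overlap those of Hmgxb3 on the opposite strand, and since the strand setting of the counting is not given in the sources used here, its counts may include that gene.

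Adgre1, which encodes the classical macrophage marker F4/80, went from 2.67, 2.75, 2.98, 3.93 and 5.17 CPM to 18.9, 30.7, 34.6, 41.8 and 67 CPM. Cd68 went from 1.9, 2.79, 3.11, 3.49 and 4.1 CPM to 23.9, 53.1, 75.1, 89.1 and 166 CPM. In both genes the groups did not overlap and library 40 was the highest, with log2 fold changes of 3.46 ± 0.35 and 4.72 ± 0.52 (edgeR adjusted p = 7.12e-07 and 1.62e-06). The other pan-macrophage members rose by between 2.73 (Aif1, a calcium-binding protein of macrophages) and 5.33 (Cd84, a surface receptor of the SLAM family) on the log2 scale, and none of their groups overlapped. Cd84 was at 4.68 without library 40.

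The 6 leukocyte adaptors and regulators rose as well, with a median log2 fold change of 3.04. Tyrobp, the DAP12 adaptor that signals for many myeloid receptors, rose by 3.71 ± 0.36 and Spi1, the gene of PU.1, by 2.94 ± 0.30 (edgeR adjusted p = 6.25e-07 and 7.33e-07). Spi1 was at 1.27, 1.54, 1.83, 1.92 and 2.32 CPM in untreated controls and at 8.01, 10.8, 13, 17.6 and 19.1 CPM in untreated oxalate. Every oxalate library was at least 3 times the highest control library. Cebpb, a transcription factor that other cell types also use, rose least of the 6 and unevenly. Its level was 3.17, 3.45, 5.61, 6.19 and 8.27 CPM in controls and 5.39, 5.79, 7.22, 15.4 and 23.1 CPM in oxalate, where libraries 3 and 12 stood above the rest and the other 3 lay within the control range. The log2 fold change of 1.09 ± 0.36 (edgeR adjusted p = 0.0175) fell to 0.66 without oxalate 12, where it was no longer called (adjusted p = 0.106), and it was not called in the fit of the 2 untreated groups alone (adjusted p = 0.0509).

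Of the 5 Fc receptor genes 4 rose. These receptors bind the constant part of antibodies, and Fcer1g encodes the signalling chain that the activating ones share. Fcgr3, Fcgr1, Fcer1g and Fcgr4 rose by 3.76 ± 0.42, 2.99 ± 0.28, 2.97 ± 0.30 and 2.07 ± 0.31 on the log2 scale (edgeR adjusted p at most 2.74e-05). Fcgr2b, the inhibitory receptor of the family, was at 71, 71.6, 72.5, 72.7 and 79.3 CPM in untreated controls and 71, 71.8, 86.1, 88 and 114 CPM in untreated oxalate. Library 32 lay within the control range, 39 just below it and 40 far above it, and the log2 difference of 0.23 ± 0.10 was not called (edgeR adjusted p = 0.0586). Fcgr2b was the most abundant of the 5 per length in controls, with a median of 12.5 RPKM, and in untreated oxalate its 14.9 RPKM was below the 43.9 RPKM of Fcer1g and the 23.0 RPKM of Fcgr3. It was called higher without oxalate 32 (adjusted p = 0.0419) or 39 (adjusted p = 0.0183), with limma voom (log2 0.19, adjusted p = 0.0362) and with total counts (log2 0.55, adjusted p = 0.00225). Of the 50-base words of the related Fcgr3, 9.58% also occur in Fcgr2b.

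Both integrin genes rose. Itgax was at 3.35, 3.57, 3.68, 3.73 and 4.81 CPM in untreated controls and at 28.9, 58.6, 78.9, 104 and 243 CPM in untreated oxalate. All 5 oxalate libraries lay well above the controls, and library 40 was more than 2 times as high as the next. The log2 fold change was 4.74 ± 0.52 (edgeR adjusted p = 1.62e-06), or 4.09 without library 40. Itgam, which encodes CD11b, rose by 4.11 ± 0.44 (adjusted p = 9.34e-07), but 66.3% of its 50-base words are shared with the overlapping annotated gene Gm49368, so its count is uncertain.

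**Figure D2:**
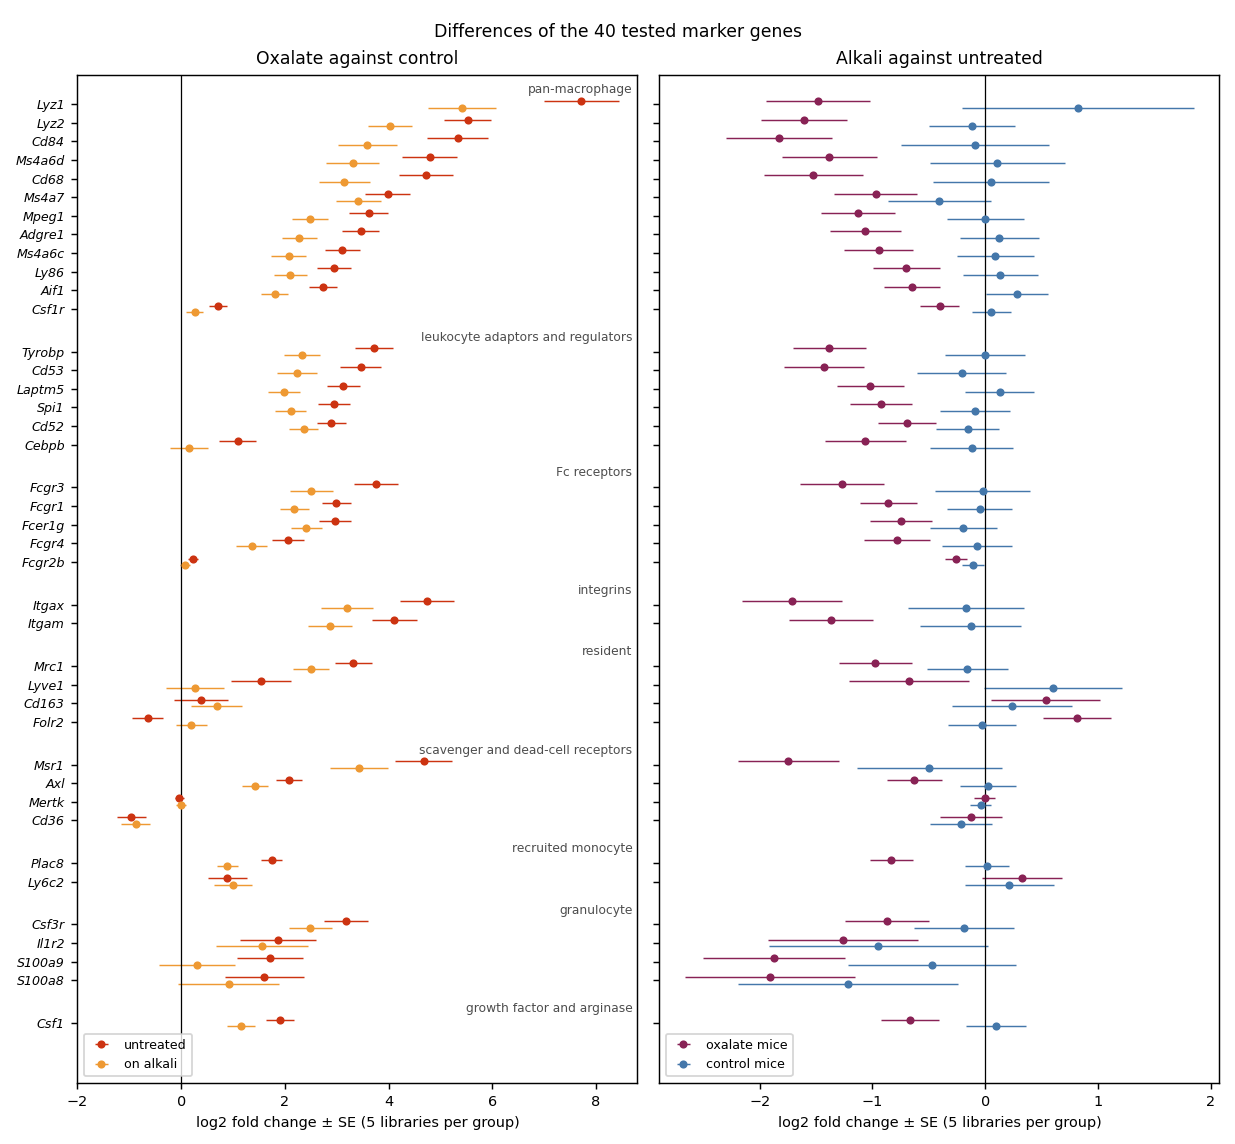
Log2 fold change ± SE of the 40 tested members, grouped by role, for oxalate against control (left, untreated and on alkali) and alkali against untreated (right, in oxalate and in control mice), from 1 edgeR fit with 5 libraries per group. Most members lie well to the right in the left panel. Among the exceptions are Folr2, Cd163, Mertk, Fcgr2b and Cd36, and in the right panel Folr2, Cd163 and Ly6c2 lie above 0 in oxalate mice while most others lie below.

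Resident markers did not move as a group. Of the 5, Mrc1 and Lyve1 rose, Cd163 and Folr2 were not called and Timd4 was not tested. Mrc1, the mannose receptor, was at 2.92, 3.24, 3.63, 4.02 and 4.97 CPM in untreated controls and 16.1, 24.6, 32.3, 40 and 74.5 CPM in untreated oxalate. No libraries overlapped, and the log2 fold change was 3.32 ± 0.36 (edgeR adjusted p = 1.11e-06), a size like that of the pan-macrophage markers. Lyve1, a hyaluronan receptor that lymphatic vessels also carry, was low, at 0.0406, 0.171, 0.296, 0.377 and 0.392 CPM against 0.262, 0.397, 0.723, 0.998 and 1.37 CPM. Oxalate libraries 32 and 39 lay near the control range and the other 3 above it, and the change was 1.55 ± 0.58 (adjusted p = 0.0321). This call was lost without any of controls 13, 26 or 35 or oxalate 3 or 40 (log2 1.16 to 1.60, adjusted p = 0.05 to 0.12).

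Folr2, the folate receptor beta of resident macrophages, had the opposite sign. Its level was 1.58, 2.17, 3.85, 4.67 and 5.06 CPM in untreated controls and 1.69, 1.75, 2.06, 2.53 and 2.99 CPM in untreated oxalate. Controls spread from below all oxalate libraries to well above them. The log2 difference was -0.65 ± 0.30 (edgeR adjusted p = 0.0822), which passed the threshold without control 19, control 35 or oxalate 40 (log2 -0.83 to -0.78, adjusted p = 0.0239 to 0.0465). Cd163, the haemoglobin scavenger receptor, was at 0.169, 0.178, 0.324, 0.411 and 0.527 CPM and 0.165, 0.349, 0.417, 0.571 and 0.599 CPM, with a log2 difference of 0.38 ± 0.52 (adjusted p = 0.561). The ranges of both groups nearly coincided. Timd4, a receptor for dying cells, was listed at 0 in 4 of 5 untreated control libraries and reached 0.229 CPM in oxalate 40. With no filter on low counts Timd4 was called higher in oxalate (log2 2.94, edgeR adjusted p = 0.0467). Per length, Folr2 was the highest of the 5 in untreated controls with a median of 2.49 RPKM, ahead of the 0.569 RPKM of Mrc1, and in untreated oxalate this order was reversed, at 1.33 RPKM for Folr2 and 5.08 RPKM for Mrc1.

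Among 11 other genes linked to resident macrophages, 8 rose and 1 fell, with a median log2 fold change of 2.31. C1qb, a chain of the first complement component, Cd74, the invariant chain of MHC class II, and Apoe, a lipid carrier, rose by 3.10, 2.31 and 2.84 (edgeR adjusted p at most 9.11e-07). Selenop, which many cell types express, fell by 0.61. The summed level of these 11 genes overlapped between groups, from 4309.8 to 6023 CPM in untreated controls and 4718 to 6169 CPM in untreated oxalate. Such a sum is set by the most abundant genes and does not show the change of the others. In 7 of the 11 every oxalate library lay above every control library, against 18.5% of all genes.

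**Figure D3:**
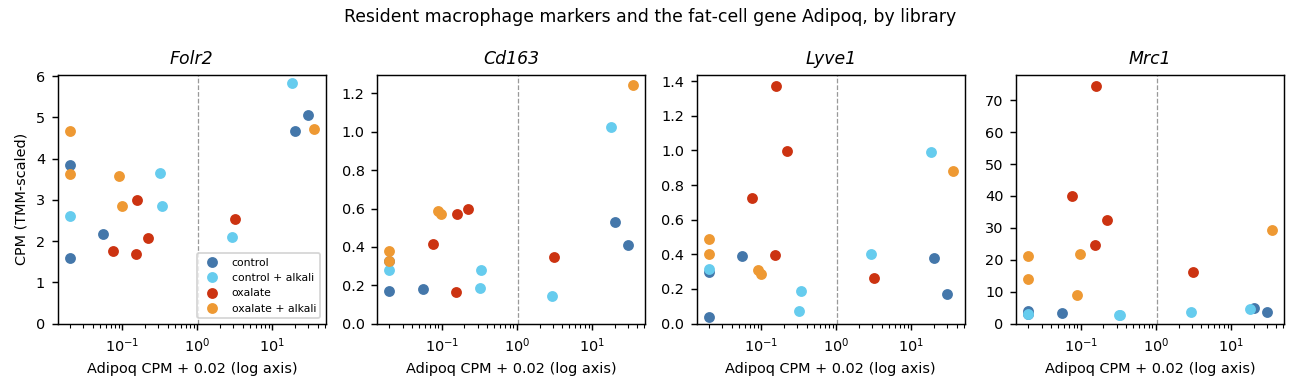
CPM of Folr2, Cd163, Lyve1 and Mrc1 (linear axes) against CPM of the fat-cell gene Adipoq plus 0.02 (log axis) in each of 20 libraries, coloured by group, with a dashed line at 1 CPM of Adipoq. The highest Folr2 and Cd163 levels lie to the right of the line, in libraries with Adipoq, and the highest Mrc1 levels to its left.

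Fat-cell transcripts were uneven between libraries. Adipoq, which encodes a fat-cell hormone, was above 1 CPM in 6 libraries: controls 9 and 26, controls on alkali 1 and 4, oxalate 32 and oxalate on alkali 33. Its group difference was not called. The Folr2 level was 4.67 to 5.06 CPM in the 2 Adipoq-positive untreated controls and 1.58 to 3.85 CPM in the other 3. Among controls on alkali, Cd163 reached 1.03 CPM in library 4 against at most 0.282 CPM in the other 4. Library 1, the other Adipoq-positive control on alkali, was the lowest of its group for both, at 0.145 CPM of Cd163 and 2.11 CPM of Folr2. The summed level of the 5 adipocyte genes ran from 0.169 to 221 CPM in untreated controls and from 0.499 to 16.8 CPM in untreated oxalate. Without the 6 libraries the Folr2 difference was -0.29 on the log2 scale (adjusted p = 0.431) and that of Cd163 was 0.93 (adjusted p = 0.116).

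Scavenger receptors and receptors for dead cells went in different directions. Msr1, the class A scavenger receptor, rose from 0.243, 0.308, 0.321, 0.452 and 0.466 CPM to 2.24, 5.66, 5.75, 10.3 and 22.1 CPM. The groups were far apart, and library 40 was again the highest, at a log2 fold change of 4.68 ± 0.55 (edgeR adjusted p = 2.16e-06), or 4.01 without library 40. Axl, a receptor tyrosine kinase that binds dying cells through GAS6, rose by 2.08 ± 0.26 (adjusted p = 3.71e-06). Its relative Mertk, by contrast, was at 52.8, 58.3, 62.2, 63.1 and 65 CPM and 50.4, 54.1, 55, 60.5 and 74.4 CPM. The groups overlapped throughout, the log2 difference was -0.03 ± 0.09 (adjusted p = 0.786), and its sign depends on scaling: with total counts, which move the median of all genes to 0.30, it was 0.28.

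Cd36, a fatty acid and lipid receptor that tubular and endothelial cells also express, was the only member called lower. Its level was 629.7, 809, 818, 874 and 912 CPM in untreated controls and 315, 357, 391, 484 and 526 CPM in untreated oxalate. All 5 oxalate libraries lay below all 5 controls, and the log2 fold change was -0.96 ± 0.28 (edgeR adjusted p = 0.00717). In controls Cd36 had the highest level per length of all members, with a median of 228 RPKM. The proximal tubule gene Lrp2 also fell, by 1.22 ± 0.25 (adjusted p = 5.09e-04). That was the lowest value of 10 nephron genes, whose median was -0.17, with 4 called lower and 2 higher. The part of proximal tubule cells in the Cd36 difference was not tested. Marco, a further scavenger receptor, was listed at 0 in all 5 untreated controls and reached at most 0.0914 CPM in untreated oxalate.

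The 2 recruited monocyte markers differed in size. Plac8, a small protein of blood monocytes and other leukocytes, was at 6.23, 6.55, 7.83, 7.98 and 8 CPM in untreated controls and 19.1, 21.5, 22.4, 26.4 and 33 CPM in untreated oxalate. The groups did not overlap, with a narrow spread in both, and the log2 fold change was 1.74 ± 0.20 (edgeR adjusted p = 1.62e-06). Ly6c2, which encodes the surface protein that marks freshly arrived monocytes, was at 0.381, 0.49, 0.535, 0.649 and 0.684 CPM and 0.728, 0.832, 0.835, 0.893 and 1.78 CPM. Its groups did not overlap either, by a small gap, but the log2 difference of 0.89 ± 0.38 was not called (adjusted p = 0.0566). It was called without oxalate 32 or oxalate on alkali 2 or 33 (adjusted p = 0.0327 to 0.0479), with total counts (log2 1.22, adjusted p = 0.0202), without the 6 Adipoq-positive libraries (adjusted p = 0.0437) and in the fit of the 2 groups alone (adjusted p = 0.0304). Of the Ly6c2 transcript, 14.4% of the 50-base words also occur in related genes, mainly Ly6c1. Of 10 other genes of recruited monocytes 9 were tested and 6 rose, among them Cd14, the co-receptor for endotoxin, by 3.13 ± 0.31, Fn1, fibronectin, by 3.13 ± 0.33, and S100a4, a calcium-binding protein, by 2.44 ± 0.32 (adjusted p at most 6.25e-06).

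Of the 4 granulocyte markers 3 rose, and the calls of S100a9 and Il1r2 depended on the method. Csf3r, the receptor for granulocyte colony-stimulating factor, was at 0.423, 0.446, 0.684, 1.21 and 1.35 CPM in untreated controls and 4.19, 5.36, 6.85, 8.35 and 12.8 CPM in untreated oxalate. The groups did not overlap, and the log2 fold change was 3.18 ± 0.42 (edgeR adjusted p = 7.96e-06). Of the 50-base words of Csf3r, 10.5% also occur in other genes, mainly AC105061.2, so part of its count may be uncertain. The remaining 3 granulocyte markers were at or below 1.51 CPM in every library. S100a9, a subunit of the neutrophil protein calprotectin, was at 0.0406, 0.0423, 0.205, 0.264 and 0.499 CPM and 0.116, 0.499, 0.562, 0.835 and 1.51 CPM. Control 19 reached the level of oxalate 3, and oxalate 32 lay within the controls. Its change of 1.71 ± 0.64 (adjusted p = 0.0316) was no longer called without control 13, 26 or 35 or oxalate 12 or 40 (log2 1.17 to 1.69, adjusted p = 0.0545 to 0.147), with limma voom (adjusted p = 0.0921) or in the fit of the 2 groups alone (adjusted p = 0.0529), and it was 2.30 without control 19.

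S100a8, the partner of S100a9 in calprotectin, was at 0, 0, 0, 0.113 and 0.784 CPM in untreated controls and 0.116, 0.466, 0.473, 0.628 and 1.14 CPM in untreated oxalate. Control 19 held most of the control counts. The log2 difference of 1.61 ± 0.76 was not called (edgeR adjusted p = 0.0846), whereas without control 19 it was 4.13 (adjusted p = 0.00053). It was also called without oxalate 32, with total counts and with limma voom (log2 1.82, 1.95 and 2.44, adjusted p = 0.0451, 0.0435 and 0.0110). Il1r2, a decoy receptor for interleukin 1, was at 0, 0, 0.0684, 0.188 and 0.285 CPM and 0.175, 0.333, 0.334, 0.43 and 0.8 CPM, a change of 1.87 ± 0.74 (adjusted p = 0.0404). The groups overlapped slightly, and that call was lost without control 13, 26 or 35 or oxalate 12, 39 or 40 (log2 1.42 to 1.94, adjusted p = 0.0508 to 0.140). It was also lost with DESeq2 (adjusted p = 0.0504), with no filter on low counts (adjusted p = 0.0616) and without the 6 Adipoq-positive libraries (adjusted p = 0.0545). Without control 19 the Il1r2 change was 2.59. Of 16 other neutrophil genes only 4 had enough counts to be tested: Mmp9, Hdc and Fpr2 rose by 1.90, 1.16 and 2.76, and Ltf was not called. Their summed level was at most 1.64 CPM in untreated controls and at most 6.95 CPM in untreated oxalate.

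Csf1, the ligand of the macrophage growth factor receptor, rose by 1.91 ± 0.27 (edgeR adjusted p = 1.39e-05), from 8.33, 8.38, 9.65, 9.96 and 14.1 CPM to 23.3, 23.5, 40.8, 49.1 and 53.4 CPM. No oxalate library reached down to the controls. In the growth factor axis as a whole, 8 of 9 tested genes of 11 rose, with Csf2rb and Csf2ra, receptor chains for GM-CSF, at 3.52 ± 0.40 and 2.22 ± 0.29. Arg1, an arginine-degrading enzyme, was at 0.0666, 0.0873, 0.132, 0.526 and 0.835 CPM in untreated oxalate and at or below 0.0377 CPM in untreated controls. Its counts were below the filter in the fit of all libraries. In the 18 other settings that kept it, Arg1 was called higher in all 18 (log2 3.87 to 4.67, adjusted p = 0.00181 to 0.0157). These settings reuse most of the same libraries and are not independent of each other. Except with no filter, being kept required counts that untreated controls did not hold, so these 18 calls add no support to the difference. Arg1 was not kept when oxalate 12 or 40 or oxalate on alkali 8 or 33 was left out, among other settings.

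Markers of other blood cells moved in the same libraries. Of 10 dendritic cell genes 9 rose, with Batf3, Irf8 and Xcr1 at 1.81, 1.65 and 2.28 on the log2 scale, and of 8 tested lymphocyte genes 5 rose, with Cd4, Cd3e and Cd3d at 3.32, 2.61 and 2.79. The summed dendritic cell level was 26.1 to 32.5 CPM in untreated controls and 66.9 to 119.8 CPM in untreated oxalate. For the lymphocyte list these ranges were 3.97 to 5.8 CPM and 15.5 to 27.8 CPM. Siglecf, a receptor of eosinophils and some macrophages, rose by 5.67 ± 0.83 (edgeR adjusted p = 2.13e-05). Dendritic cells are known to carry Itgax and several Fc receptors too. Of the other lists, 2 of 3 tested genes of mast cells, basophils and eosinophils rose, 3 of 8 endothelial and lymphatic genes rose, 2 of 10 nephron genes rose and 4 fell, and 0 of 5 red blood cell and 0 of 4 adipocyte genes were called in edgeR. The part of these cells in the members' differences was not tested.

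To compare resident, recruited and granulocyte markers with each other, the count of 20 members was divided within each library by the count of a reference gene. Such a ratio needs no scaling between libraries, but its direction depends on the reference, so 3 were used side by side: Csf1r, Ptprc, which encodes CD45 of all leukocytes, and Laptm5, a lysosomal protein of leukocytes. Between untreated groups Csf1r, Ptprc and Laptm5 themselves rose by 0.72, 2.41 and 3.13 on the log2 scale. The possible share of Hmgxb3 in the Csf1r counts applies to ratios per Csf1r as well. Ratios were compared by exact two-sided permutation over all splits of 10 libraries, adjusted over 80 tests per reference.

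Lysozyme, Cd68 and Itgax exceeded all 3 references. Per Csf1r count, the oxalate minus control difference of the mean log2 ratio was 7.14 for Lyz1, 4.72 for Lyz2, 3.85 for Cd68 and 3.76 for Itgax, and per Laptm5 count it was 4.75, 2.33, 1.46 and 1.37 (exact permutation, adjusted p = 0.0276 and 0.0302). For each of these, no oxalate library overlapped a control library. Adgre1, Itgam and Msr1 also passed on all 3 references. Per Laptm5 they differed by 0.35, 0.79 and 1.23 (exact permutation adjusted p = 0.0454 each), with groups that overlapped. Mrc1 and Csf3r differed by 2.51 and 2.57 per Csf1r (adjusted p = 0.0276), but by only 0.12 and 0.18 per Laptm5 (exact permutation adjusted p = 0.71 and 0.655). Per Ptprc Mrc1 differed by 0.85, not called, and Csf3r by 0.91, which passed (exact permutation adjusted p = 0.0614 and 0.0423).

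Several recruited and resident markers fell relative to Ptprc and Laptm5, but the resident marker Mrc1 did not. Any member that rose less than the reference is lower by this measure. The Fc receptor gene Fcgr2b also fell, by -2.09 per Ptprc and -2.82 per Laptm5 (exact permutation adjusted p = 0.0265 and 0.0302). Plac8 was 1.08 higher per Csf1r, but 0.58 lower per Ptprc and 1.31 lower per Laptm5 (difference -0.58 and -1.31; exact permutation adjusted p = 0.0276, 0.0265 and 0.0302). Ly6c2 differed by 0.17 per Csf1r (adjusted p = 0.581), by -1.49 per Ptprc and by -2.22 per Laptm5 (exact permutation adjusted p = 0.0265 and 0.0302). Folr2 was lower on every reference, by -1.19 per Csf1r, which was not called (adjusted p = 0.0819), -2.85 per Ptprc and -3.58 per Laptm5 (exact permutation adjusted p = 0.0265 and 0.0302). Cd163 differed by -0.29 per Csf1r, not called, by -1.95 per Ptprc and by -2.68 per Laptm5 (exact permutation adjusted p = 0.625, 0.0423 and 0.0302). Mertk, whose own level was not called different, was at -0.69, -2.34 and -3.07 (exact permutation adjusted p = 0.0276, 0.0265 and 0.0302). The low granulocyte genes S100a8, S100a9 and Il1r2 passed with none of the 3 references.

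**Figure D4:**
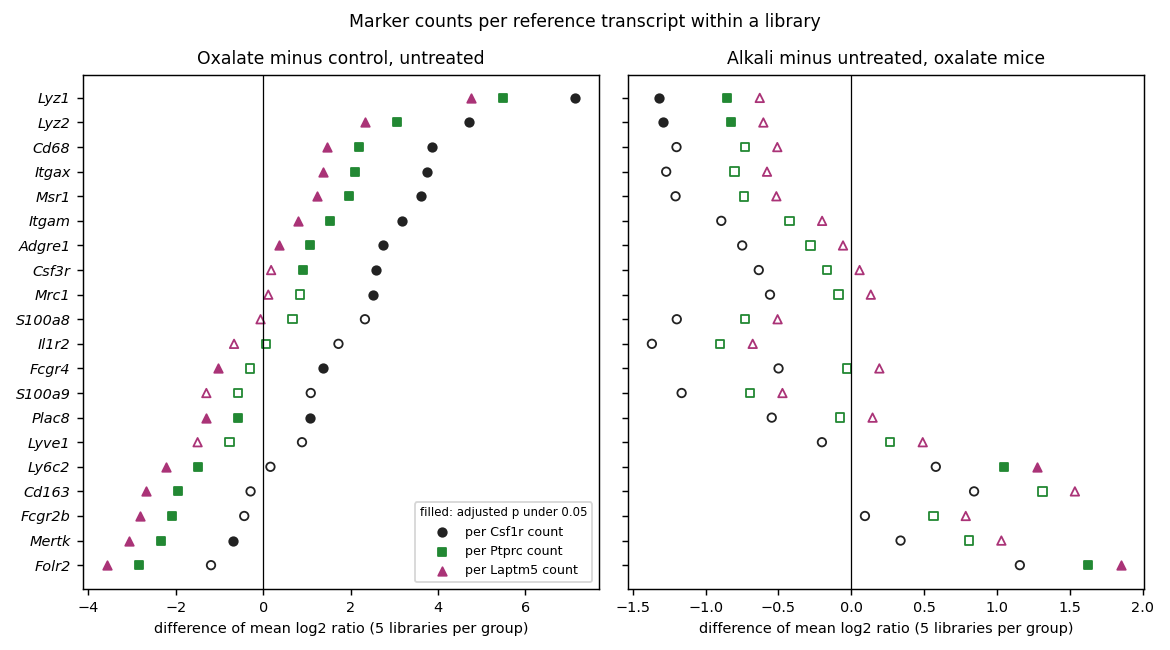
Difference of the mean within-library log2 count ratio of 20 members, per Csf1r (circles), Ptprc (squares) or Laptm5 (triangles), for oxalate minus control (left) and alkali minus untreated in oxalate mice (right), with 5 libraries per group. Filled symbols have an adjusted exact permutation p under 0.05. Lyz1 and Lyz2 lie to the right of 0 on all 3 references in the left panel and to the left in the right panel, and Folr2 lies on the other side in both.

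Alkali was then compared with no treatment in oxalate mice, which asks whether the myeloid transcripts were lower on therapy. Of 40 tested members, 8 were called lower and none higher (edgeR, adjusted p under 0.05), where 2.33% of all genes tested were called lower and 1.76% higher. The 8 were Lyz2, Cd84, Tyrobp, Cd53, Itgam, Itgax, Msr1 and Plac8. The median log2 fold change of the 40 was -0.96, against 0.01 over all genes, and 3 of the 40 values were above 0. No member separated the groups completely, against 1.61% of all genes with every alkali library below every untreated one. This comparison uses the same untreated oxalate libraries as the one with controls, so the values of the 2 are not independent.

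Lyz2 was at 96.8, 209, 385, 387 and 491 CPM in the oxalate libraries on alkali, below the untreated 396, 706, 826, 970.3 and 1878 CPM except that library 33 on alkali exceeded untreated 32. The log2 fold change was -1.61 ± 0.38 (edgeR adjusted p = 0.0250). Itgax was at 8.71, 19, 38.3, 42.7 and 47.4 CPM on alkali, a change of -1.72 ± 0.44 (adjusted p = 0.0354), and Msr1 at 1.03, 1.77, 2.74, 2.97 and 5.24 CPM, a change of -1.75 ± 0.45 (adjusted p = 0.0323). In all 3 genes library 2 was the lowest and library 33 the highest on alkali, and the only untreated library they reached was 32. Plac8, at 8.37, 11.7, 11.9, 14.9 and 21.9 CPM, had the smallest adjusted p of the members (-0.84 ± 0.19, adjusted p = 0.0208). Tyrobp and Cd84 differed by -1.38 ± 0.32 and -1.83 ± 0.47 (adjusted p = 0.0243 and 0.0339), and Cd53, a leukocyte tetraspanin, by -1.43 ± 0.35 (adjusted p = 0.0286).

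The members that missed the threshold mostly lay in the same direction. Adgre1, at 7.47, 13.1, 20.9, 23 and 28 CPM on alkali, differed by -1.06 ± 0.32 (edgeR adjusted p = 0.0595), and Cd68, at 6.68, 18.7, 32.7, 35.1 and 48.3 CPM, by -1.53 ± 0.44 (adjusted p = 0.0551). Csf1r differed by -0.40 ± 0.17 (adjusted p = 0.182). No resident or granulocyte marker was called: Mrc1, at 9.02, 14.1, 21.3, 21.8 and 29.4 CPM, differed by -0.97 ± 0.32 (adjusted p = 0.0891), Csf3r by -0.87 ± 0.37 (adjusted p = 0.187), and S100a8 and S100a9 by -1.91 ± 0.75 and -1.88 ± 0.63 (adjusted p = 0.152 and 0.0922). Of the 9 tested other genes of recruited monocytes, Cd14 and Thbs1 were lower (-1.22 and -0.84). Of the other resident genes 0 of 11 were called, and of the other neutrophil genes 0 of 4. Across all genes tested 2.33% were called lower and 1.76% higher, so short lists without a call do not set these genes apart. The median log2 fold change was -0.68 for the other recruited genes, -0.56 for the resident and -0.49 for the neutrophil genes. S100a9 was at 0.126, 0.138, 0.156, 0.19 and 0.36 CPM on alkali, and the untreated libraries other than 32 lay above all of these.

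Positive differences on alkali were found in 3 members, and none was called. Folr2 was at 2.84, 3.58, 3.64, 4.67 and 4.71 CPM on alkali against 1.69, 1.75, 2.06, 2.53 and 2.99 CPM untreated, so only library 8 on alkali lay below an untreated library, number 40. The log2 difference was 0.81 ± 0.30 (edgeR adjusted p = 0.128). Cd163, at 0.328, 0.38, 0.573, 0.585 and 1.24 CPM, differed by 0.54 ± 0.48 (adjusted p = 0.570), and Ly6c2, at 0.517, 0.99, 1.19, 1.28 and 2.45 CPM, by 0.33 ± 0.35 (adjusted p = 0.648). Library 33, which had the most Adipoq of this group, was the highest in all 3. Without the 6 Adipoq-positive libraries the difference of Folr2 was 0.80 (adjusted p = 0.08), while that of Ly6c2 changed sign, to -0.13.

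Within libraries, the lysozyme ratios were lower and that of Folr2 was higher on alkali, with the call depending on the reference. Per Csf1r, Lyz1 and Lyz2 differed by -1.32 and -1.30 (exact permutation adjusted p = 0.0276 for both), per Ptprc by -0.85 and -0.83 (adjusted p = 0.0423), and per Laptm5 by -0.63 and -0.60, which were not called (exact permutation adjusted p = 0.123 and 0.0595). Folr2 was higher by 1.16 per Csf1r, not called (adjusted p = 0.0508), by 1.63 per Ptprc and by 1.85 per Laptm5 (exact permutation adjusted p = 0.0265 and 0.0454). Ly6c2 was higher by 1.05 per Ptprc and 1.27 per Laptm5 (exact permutation adjusted p = 0.0265 and 0.0302), and by 0.58 per Csf1r, not called (adjusted p = 0.252). Both values of Ly6c2 that passed came with groups that did not overlap. A reference that is lower on alkali raises these ratios. Laptm5 itself differed by -1.19 to -0.76 on the log2 scale when 1 library was left out. The levels of Folr2 and Ly6c2 themselves were not called. The Lyz1 share of lysozyme counts was 3.5% ± 0.695 on alkali and 3.52% ± 0.415 untreated (SD, n = 5 each; exact permutation p = 0.968).

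The calls on alkali in oxalate mice rested on a few libraries. The number of members called lower was 0 without untreated oxalate 12 or without alkali library 30, and 1 without untreated oxalate 40, where Cd84, Itgax and Msr1 were at -1.22, -1.10 and -1.12 on the log2 scale. It was 24 without untreated oxalate 32, 16 without alkali library 33, 10 without untreated 39, 4 without alkali library 2, 6 without alkali library 5, and 5 without untreated 3 or alkali library 8. With the untreated library of highest (40) and the alkali library of lowest (2) summed pan-macrophage level left out together, a choice made after the values were seen, 2 were called and Lyz2 was at -0.97 (edgeR adjusted p = 0.0585). Fitted on these 2 groups alone the count was 0, with DESeq2 19, with limma voom 14, with total-count scaling 6, with no filter on low counts 5, and without the 6 Adipoq-positive libraries 26. Itgam was also lost when any of controls 9, 13, 19 or 35 or controls on alkali 1, 7, 27 or 37 was left out (adjusted p = 0.0506 to 0.0567). The sign of the Lyz2 difference was negative in each of these fits. The nephron sum, 9603 to 15507 CPM on alkali, was highest in library 2, where the pan-macrophage sum was lowest, and the part of tubular cell content in these differences was not tested.

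**Figure D5:**
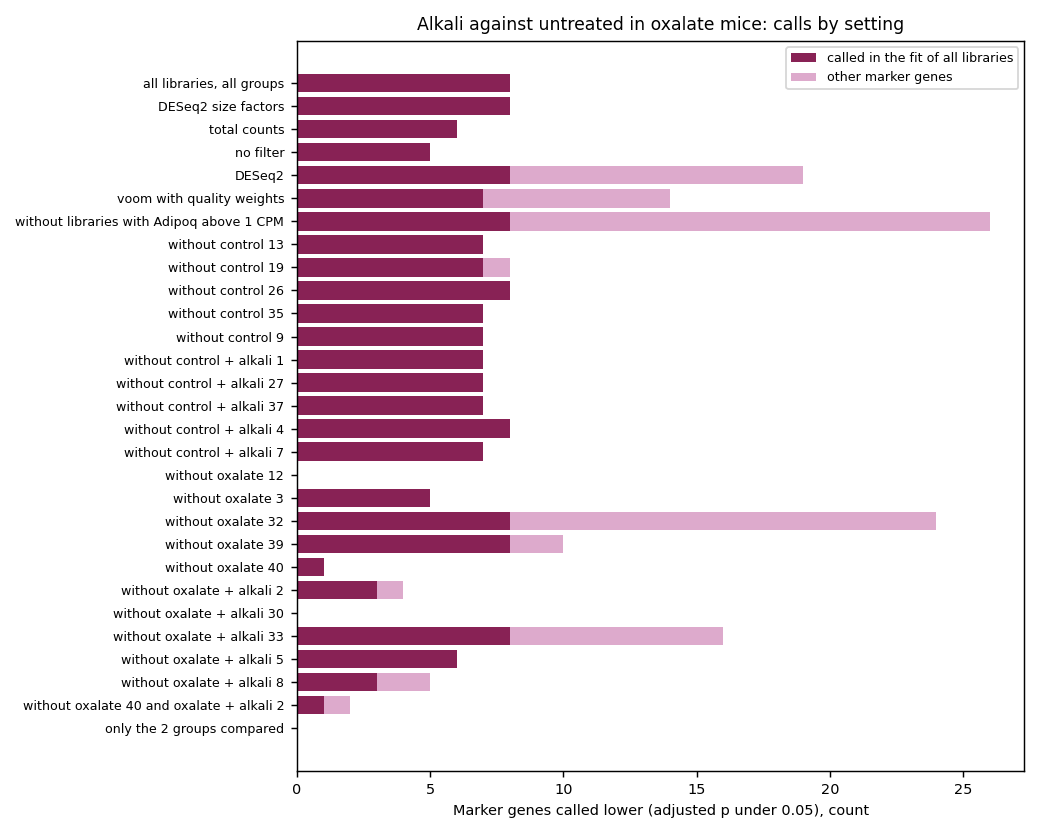
Number of the 40 tested members called lower on alkali in oxalate mice (adjusted p under 0.05) in the fit of all libraries and in each other setting, including each library left out. Dark bars count the 8 members called in the fit of all libraries, light bars further members. The number runs from 0 to 26.

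In control mice no member was called on alkali. None of 40 passed in either direction (edgeR, adjusted p under 0.05), nor was any gene (0% higher and 0% lower of 15430), and none of the members had an unadjusted p under 0.05. DESeq2 and limma voom also called none of the members, and none was under 0.05 unadjusted with them. Among all genes, 389 were under 0.05 unadjusted in edgeR, and DESeq2 called 3 higher. The members' log2 differences ran from -1.22 (S100a8) to 0.82 (Lyz1), both at few counts. Lyz2 was at 14.1, 15.1, 15.3, 24.9 and 26.4 CPM in controls on alkali, Adgre1 at 2.64, 3.12, 3.76, 4.54 and 5.01 CPM, and Mrc1 at 2.64, 2.75, 3.16, 3.63 and 4.65 CPM. These ranges overlap those of the untreated controls, and no member separated the groups, against 0.557% of all genes in the higher and 0.467% in the lower direction. Control on alkali 4, which held Adipoq, was the highest of its group for Folr2, Cd163, Lyve1 and Mrc1.

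Between oxalate and control mice that both received alkali, 29 members were higher and 1, Cd36, was lower (edgeR), where 23.4% of all genes were called higher and 17.1% lower. The median log2 fold change of the 40 was 2.11, against 0.02 over all genes. In 26 members every oxalate library lay above every control library, and in 0 every one lay below, against 10.8% and 5.53% of all genes. Lyz1 and Lyz2 were higher by 5.41 ± 0.65 and 4.03 ± 0.42 (edgeR adjusted p = 2.88e-05 and 8.41e-06), and Lyz1 by 6.41 without control on alkali 4. Csf1r, Cebpb, Lyve1, S100a9 and Il1r2, called between the untreated groups, were not called here (adjusted p = 0.161 to 0.766). Ly6c2 was called, at 1.0 ± 0.37 (adjusted p = 0.0366), but not without controls on alkali 7, 27 or 37 or oxalate on alkali 5 or 33 (log2 0.64 to 1.0, adjusted p = 0.0587 to 0.157), without the 6 Adipoq-positive libraries (adjusted p = 0.0567) or in the fit of the 2 groups alone (adjusted p = 0.0672).

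Cd36 was at 629.7, 689.6, 695, 708 and 755 CPM in controls on alkali and 193, 236, 306, 326 and 835 CPM in oxalate on alkali. Library 2 was above all 5 controls, and the other 4 oxalate libraries were below all of them. The log2 fold change was -0.88 ± 0.28 (edgeR adjusted p = 0.0180), not called without oxalate on alkali 5 or 8 (adjusted p = 0.0506 and 0.0517) or without the 6 Adipoq-positive libraries (adjusted p = 0.0978). Cd163 was called higher without control on alkali 4 (log2 1.44, adjusted p = 0.0212).

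Whether alkali acted differently in oxalate and control mice was tested by the interaction. No member passed (edgeR, adjusted p under 0.05), and no gene did in either direction (0% and 0%), although 15 of the 40 members and 1429 of all genes were under 0.05 unadjusted. DESeq2 and limma voom called none of the members, with 19 and 6 under 0.05 unadjusted. Among all genes DESeq2 called 8 higher and 7 lower, and limma voom 1 lower. Interaction values were lowest for Lyz1 (-2.31 ± 1.12, edgeR adjusted p = 0.548) and highest for Folr2 (0.84 ± 0.43, adjusted p = 0.564). A difference between the effects of alkali in the 2 kinds of mice was thus not detectable for any single member with these libraries.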

How the data were processed

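The deposited files hold raw counts per gene for 20 libraries, which the authors made from stranded poly(A) TruSeq libraries, per the labels' protocols, with bcl2fastq 2.19, Trimmomatic, STAR 2.7.1 and featureCounts, per the submitters' processing notes. These notes name a human genome build although all identifiers are mouse genes, and the strand setting of the counting is not given in the sources used here. GENCODE M21 (GRCm38) gave symbols for 25587 of 25700 identifiers and exon lengths. The other 113 held at most 0.0541% of the counts of a library.

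A filterByExpr minimum count of 10 kept 15430 genes. Counts were scaled by TMM, and edgeR 4.0.16 in R 4.3.3 fitted its robust quasi-likelihood model once, with a mean for each of the 4 groups, with Benjamini-Hochberg adjustment over all genes. DESeq2 1.42.0, limma 3.58.1, other scalings and filters, fits of 2 groups, the Adipoq threshold of 1 CPM and each library left out were alternatives. Within-library ratios used log2 of counts plus 0.5. The code was tested on simulated data. Replicate libraries were checked against each other, and none was a duplicate within sampling noise. All 43 members could be named, with up to 3 genes of each other list by smallest p, and further genes were named after their values were seen where they made up a small count. The members and lists were chosen with earlier results of these data known. A further gene of the list of other resident macrophage genes is not reported here. Shared sequence was measured as the share of 50-base words of a gene's transcripts found in other genes.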

Additional observations from a re-analysis of the deposited data

Results flagged for a closer look

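Of 120 sets of 5 libraries (30 genes in 4 groups), 14 held a library whose gap to its nearest neighbour exceeded 0.71 of the group's range, Dixon's 95% critical value for 5 samples. For normally distributed values, chance alone gives such a gap in about 1 of 20 sets. That rate need not hold here, because untransformed CPM were used, some from very few counts, and the genes share libraries. Control 19 was high for Fcgr1 (1.82 CPM), Itgax (4.81 CPM, next 3.73), S100a8 (0.784 CPM, next 0.113) and Csf1 (14.1 CPM, next 9.96). Control 13 was high for Fcgr2b (79.3 CPM, next 72.7), and control 26 held the group's 1 Timd4 value above 0 (0.0342 CPM). Control on alkali 4 was high for Lyz1 (0.879 CPM, next 0.218), Cd163 (1.03 CPM, next 0.282) and Timd4 (0.147 CPM, next 0.0372). Untreated oxalate 40 was high for Lyz1 (68.3 CPM, next 30.9) and Ly6c2 (1.78 CPM, next 0.893). Oxalate on alkali 33 was high for Cd163 (1.24 CPM, next 0.585) and S100a9 (0.360 CPM, next 0.190). Oxalate on alkali 2 was high for Cd36 (834.9 CPM, next 325.6). Control on alkali 4 and oxalate on alkali 33 also held Adipoq above 1 CPM, as did control 26, and its part in these values was not tested.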

How the results depend on the processing

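No paired analysis was possible because no replicate number is shared between groups. Precision is limited by 5 libraries a group, and by few counts for Timd4, Marco, Arg1, Il1r2, S100a8, S100a9 and Cd163. Between untreated groups, members called higher numbered 30 to 37 in every setting. The cause of the following changes was not tested. Total counts called 7498 genes higher and 1308 lower in oxalate untreated, and 5645 and 953 on alkali, with the median gene at 0.30 and 0.24. No filter called 218 genes and 5 members lower on alkali in oxalate mice. There DESeq2 called 486 genes higher, 712 lower and 19 members lower, and 3 genes higher in controls, and for the interaction 8 higher and 7 lower. Voom called 14 members lower on alkali, 4204 genes lower for oxalate on alkali, and 1 for the interaction. Without the Adipoq libraries 467 genes were higher, 796 lower and 26 members lower on alkali in oxalate mice, 2263 and 956 genes higher and lower for oxalate on alkali with 0 members lower, and 1 gene higher for the interaction. The fit of 2 groups for alkali in oxalate mice called 15 genes higher, 14 lower and 0 members lower. Without oxalate 40 and oxalate on alkali 2 together, 2 members were lower in untreated oxalate (Cd36 and Folr2), 2 on alkali, 1 gene higher on alkali in controls and 4283 lower for oxalate on alkali.

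With 1 library left out, alkali in oxalate mice called 93 to 442 genes higher, 92 to 718 lower and 0 to 24 members lower. Members called lower numbered 1 to 2 for oxalate untreated and 0 to 1 on alkali, and genes lower for oxalate on alkali 1540 to 3634. Genes higher numbered 0 to 1 for alkali in controls, and for the interaction 0 to 2 higher and 0 to 1 lower. Ratios past the threshold numbered 0 to 7 (2 with all libraries) for alkali in oxalate mice, 0 to 1 (0) in controls and 3 to 10 (9) for oxalate on alkali, and 4 per Ptprc and 5 with 5 added counts for alkali in oxalate mice, and 1 per Laptm5 in controls. Signs turned for Mertk in oxalate on alkali (-0.0059 with DESeq2, -0.0058 with its size factors, -0.032 with no filter, -0.057 with voom, -0.036 without Adipoq libraries, -0.073 without 40 and 2, -0.042 to 0.044 with 1 library left out), in alkali-treated oxalate mice (0.0038 with no filter, 0.056 without 40 and 2, 0.0081 in fits of 2 groups, -0.050 to 0.103 with 1 left out), and in untreated oxalate (0.28 with total counts). On alkali Cd36 (0.054) and Ly6c2 (-0.13) turned without the Adipoq libraries, with ranges of -0.65 to 0.038 and -0.033 to 0.65 with 1 left out. So did S100a9 in oxalate on alkali (-0.53; -0.010 to 0.96 with 1 left out), and Lyve1 there ran from -0.062 to 0.94. Ratios turned per Ptprc in untreated oxalate for Fcgr4 (-0.30), Lyve1 (-0.77), Ly6c2 (-1.49), Plac8 (-0.58) and S100a9 (-0.57), and on alkali for Lyve1 (0.27). Per Laptm5 they turned in untreated oxalate for Fcgr4 (-1.03), Lyve1 (-1.50), Ly6c2 (-2.22), Plac8 (-1.31), S100a8 (-0.060), S100a9 (-1.30) and Il1r2 (-0.67), and on alkali for Fcgr4 (0.19), Mrc1 (0.13), Lyve1 (0.49), Plac8 (0.15) and Csf3r (0.057). With 5 added counts Ly6c2 was at -0.034 in untreated oxalate.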
